A study of Vitis rotundifolia with 12 samples.

Results

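In pedicels of the strongly attached muscadine genotype Ga. 6-1-269 (S), 60 of the 26394 gene models in the count files (0.227%) were several fold higher at maturity than at the pea-size stage, while Ga. 12-3-22 (W), a genotype with weak attachment, started from about the same level and stayed near it. The members were chosen by these values. CPM is the count of a gene model per 1000000 counts on all gene models of its library, and a ratio is the quotient of 2 group means of CPM after adding 0.5 to each. In S, all 3 maturity libraries had to lie above all 3 pea-size libraries, with a ratio of at least 4 and a maturity mean of at least 5 CPM. In W, the ratio of maturity over pea-size had to lie within 1.5-fold of 1 in either direction, and so had the ratio of S over W at pea-size. The rule set these 3 ratios, which together also limit the ratio of S over W at maturity. The levels and ratios below describe the members and test nothing.

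The study sequenced RNA from pedicels, the short stalks that bear the berries, of Vitis rotundifolia, to ask which genes accompany strong or weak fruit attachment. The groups were S at maturity, S at pea-size, W at maturity and W at pea-size, with 3 libraries each that the study describes as biological replicates. No treatment or transgene was involved. Each genotype is 1 breeding selection, so genotype and attachment strength cannot be told apart.

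Fruit detach at the abscission zone, a few layers of small cells between pedicel and berry. Auxin flowing from the fruit keeps this zone inactive, and ethylene promotes its activation. Enzymes that loosen the wall between neighbouring cells then allow separation, while lignin and other wall deposits strengthen or seal the tissue. A transcript that increases in the genotype that holds its fruit, and stays level in the one that drops it, is one of the expression patterns that the design can single out. The identifiers of the gene models matched none of the entries of the available reference table, so the members have no names or functions here. They are given by their values and chromosome, and 2 are given by identifier.

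Each library held between 4705119 and 21971736 counts on gene models. S maturity replicate 1 stood apart. Its Spearman correlation of log2 CPM was 0.720 with replicate 2 and 0.687 with replicate 3, against 0.957 between replicates 2 and 3. Within the other groups the correlation ran between 0.850 and 0.968. It was lowest there for W pea-size replicate 3, at 0.869 with replicate 1 and 0.850 with replicate 2, against 0.899 between those. Reads outside any gene model made up 30.4%, 21.8% and 11.0% of the reads of S maturity replicates 1, 2 and 3, against 10.6% to 17.6% in the other 9 libraries. A single gene model on chromosome 2, not a member, took 12.3% of the counts of S maturity replicate 1 and 6.94% of those of S maturity replicate 2. The part of these differences in the results on the members was not tested. In a bulk pedicel sample, fewer cells of a type and less RNA per cell cannot be told apart.

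The 60 members together held 2238, 8557 and 8930 CPM in the S maturity libraries, against 1143, 1184 and 1174 CPM in the S pea-size libraries. In W they held 1231, 1290 and 1259 CPM at maturity, against 1173, 1258 and 861 CPM at pea-size. The 9 libraries of the other groups covered a narrow range in these sums, which the rule's windows favour, and each S maturity library lay above them. Replicate 1 was far nearer to them than to replicates 2 and 3. The group means were 6575 ± 3761 CPM at S maturity and 1167 ± 21.6 CPM at S pea-size, and 1260 ± 29.3 CPM at W maturity and 1097 ± 209 CPM at W pea-size (SD, n = 3 each). S maturity over S pea-size was 5.64-fold in the summed means, and W maturity over W pea-size was 1.15-fold. Over the S pea-size mean, replicate 1 was 1.92-fold, replicate 2 7.33-fold and replicate 3 7.65-fold.

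**Figure D1:**
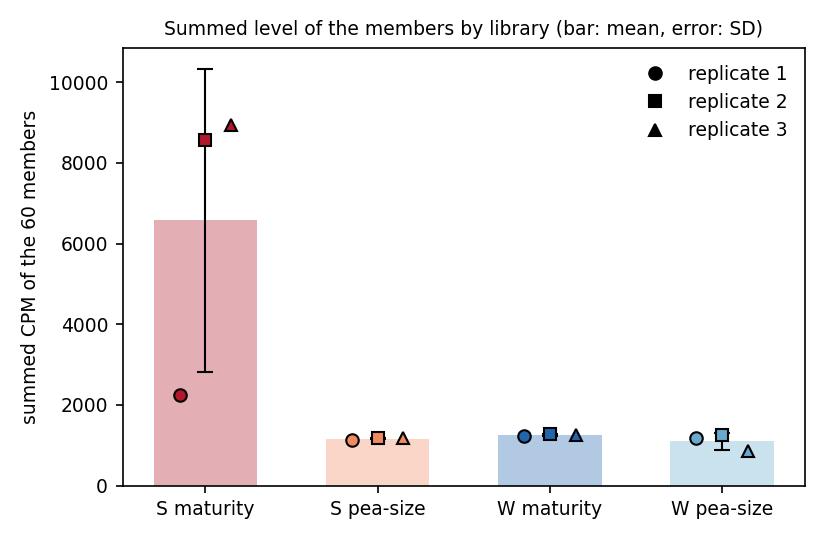
Summed CPM of the 60 members (vertical axis) in the 12 libraries, by group (horizontal axis). Points are libraries, bars are means of 3 and error bars are SD. S maturity replicates 2 and 3 lie at 8557 and 8930 CPM, replicate 1 lies at 2238 CPM, and no library of the other groups exceeds 1290 CPM.

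The member with the highest CPM at S maturity, evm.model.chr4.81 on chromosome 4, accounted for part of these sums. Its function is not annotated in the files. It had 371, 1991 and 2146 CPM in the S maturity libraries, against 333, 342 and 369 CPM in the S pea-size libraries. In W it had 516, 481 and 455 CPM at maturity, against 382, 389 and 233 CPM at pea-size. Replicate 1 of S maturity was barely above the S pea-size libraries and below every W maturity library. Replicates 2 and 3 were several fold above all others. The ratio was 4.31 in S and 1.45 in W, close to the upper end allowed for W. Each W maturity library of this member lay above every W pea-size library. The S ratio of evm.model.chr4.81 was 3.61 without S maturity replicate 2 and 3.39 without replicate 3, both under the minimum of 4. DESeq2 called all 58 members tested higher in S, beside 9.22% of all gene models tested. The edgeR test did not call evm.model.chr4.81, at an adjusted p of 0.0533. For S maturity replicate 1 alone its ratio to the S pea-size mean was 1.06, the lowest among the members. Without this member the other 59 still summed to 1867, 6566 and 6783 CPM in the S maturity libraries, against 810, 842 and 805 CPM in the S pea-size libraries.

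With 0.5 CPM added, the member with the largest S ratio, 27.2, was evm.model.chr19.89 on chromosome 19, which was almost silent outside S maturity. It had 1.04, 9.31 and 34.8 CPM in the S maturity libraries, from 11, 183 and 764 counts. At S pea-size it had 3 counts over all 3 libraries, at W maturity 3 and at W pea-size 0. The S maturity libraries differed from one another by more than 10-fold, with replicate 3 highest. The pooled counts per total of S maturity over S pea-size had a ratio of 222, with an exact 95% interval of 75.7 to 1078 that covers counting error only. The S ratio of 27.2 for evm.model.chr19.89 was 9.94 without S maturity replicate 3, and it was 88.5 with 0.1 CPM added and 14.98 with 1 CPM added. With 1 CPM added, or without S maturity replicate 3, a member on chromosome 18 had the largest S ratio instead, at 15.1 and 14.5.

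**Figure D2:**
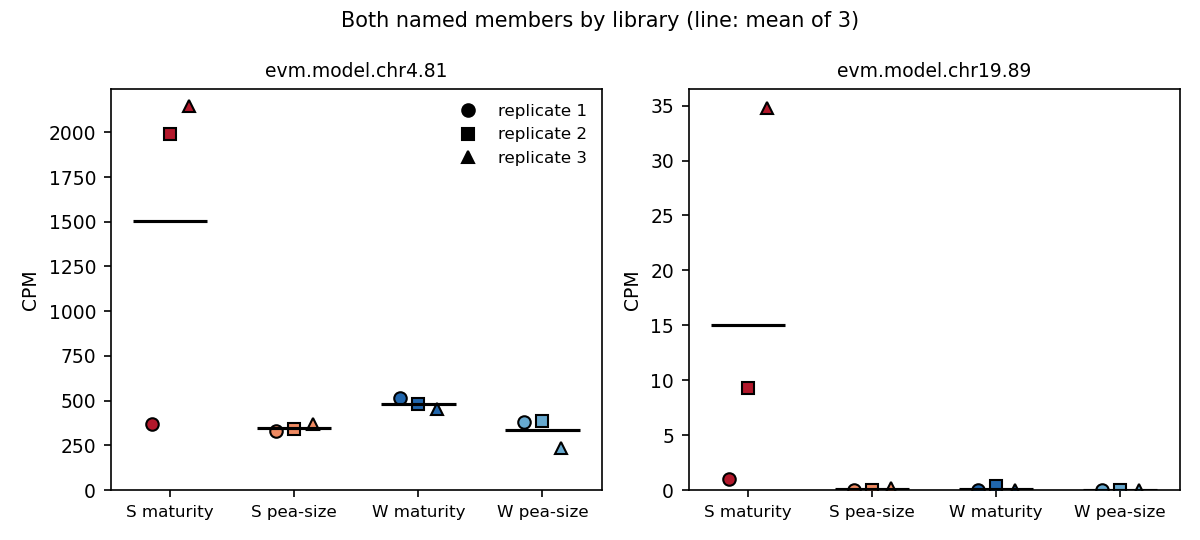
CPM (vertical axes) of evm.model.chr4.81, the member with the highest CPM at S maturity, and evm.model.chr19.89, the member with the largest S ratio after adding 0.5 CPM, in the 12 libraries by group (horizontal axes). Points are libraries and lines are means of 3. In both panels S maturity replicates 2 and 3 lie above all other libraries. Replicate 1 lies at 371 CPM in the first panel, below the W maturity libraries, and at 1.04 CPM in the second.

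Across the members the S ratio ran between 4.02 and 27.2 with a median of 6.15. It was below 5 for 16 members, between 5 and 10 for 37 and at least 10 for 7. Most members therefore sat within a few fold of the minimum that the rule set. The W ratio had a median of 1.10 (0.672 to 1.49), above 1 for 35 members and below 1 for 22. The pea-size ratio of S over W had a median of 1.02, and the maturity ratio of S over W, which the rule did not set directly but fixes within limits, had a median of 6.19 (2.24 to 24.5). The median member had a mean of 30.9 CPM at S maturity and 6.56 CPM at S pea-size, and 5.57 CPM at W maturity and 6.48 CPM at W pea-size. CPM is not divided by transcript length, so these levels do not compare transcript abundance between gene models.

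**Figure D3:**
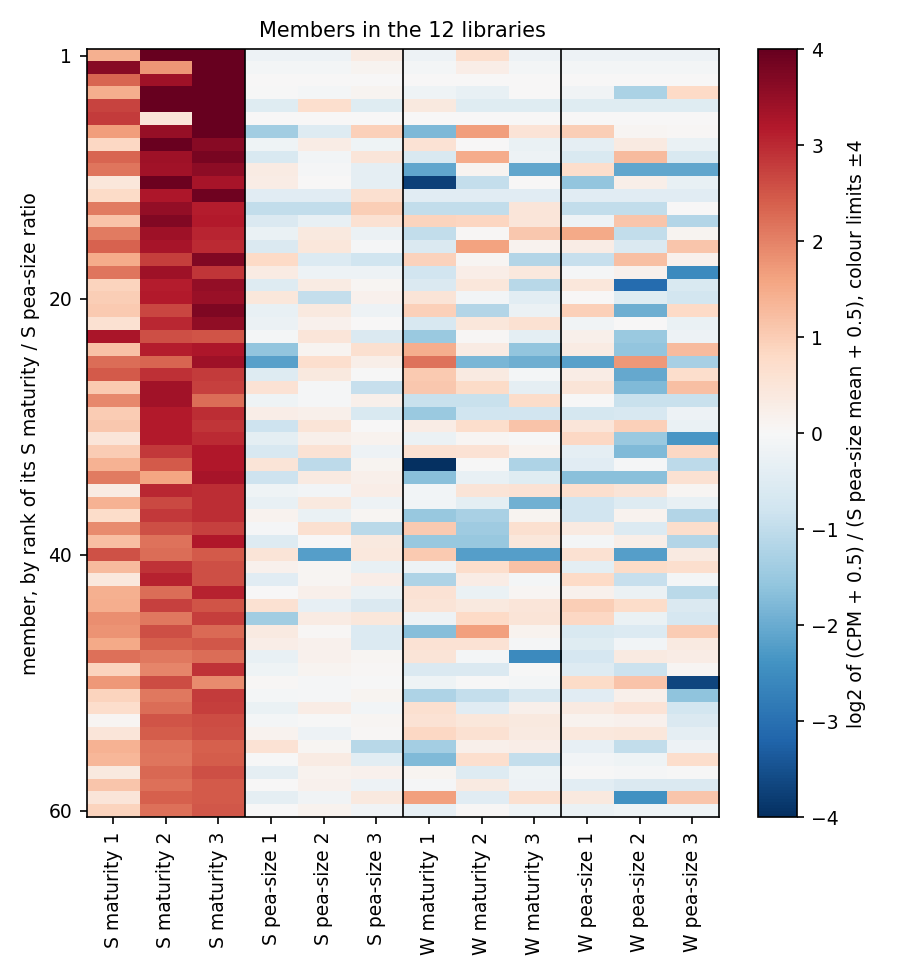
Each of the 60 members (rows, ordered by S ratio) in each of the 12 libraries (columns). Colour is the log2 of CPM plus 0.5 over the S pea-size mean plus 0.5, limited to ±4. Red fills the columns of S maturity replicates 2 and 3 and is paler in replicate 1, and the other 9 columns are mixed around 0.

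Of the 60 members, 49 had a mean of at least 0.5 CPM in both genotypes at pea-size, and 9 were under 0.5 CPM in both. The remaining 2 were under it in 1 genotype. The 49 had a median S ratio of 5.53. A pea-size mean of at least 0.5 CPM can rest on 1 library. A member on chromosome 13 had 21, 0 and 0 counts in the W pea-size libraries. The 9 had a median S ratio of 12.2 and S maturity means between 5.34 and 15.04 CPM. For those 9 the ratio depends on the added 0.5 CPM. Among them, 2 had 0 counts in every library of the other 3 groups. The one on chromosome 19 had 1.99, 4.78 and 15.8 CPM in the S maturity libraries. Its mean was at least 91.1-fold higher than the level of 3 counts over the group that 0 counts at S pea-size allow, and at least 40.9-fold higher without replicate 3. The one on chromosome 18 had 2.94, 0.204 and 13.6 CPM. Its mean was at least 67.5-fold higher on the same basis and at least 19.01-fold higher without replicate 3, while its lowest library was 2.46 times the limit. In both, replicate 3 was the highest S maturity library.

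Other well expressed members were also lowest in S maturity replicate 1. A member on chromosome 18 had 124, 1204 and 774 CPM at S maturity, against 44.5, 42.9 and 48.8 CPM at S pea-size. In W it had 39.96, 36.8 and 46.4 CPM at maturity, against 41.3, 18.5 and 80.0 CPM at pea-size. Its ratio of 15.3 was the largest among the 49 members with pea-size means of at least 0.5 CPM in both genotypes. Its 9 libraries outside S maturity all lay below the lowest S maturity library. A member on chromosome 6 had 93.9, 502 and 730 CPM at S maturity, with a ratio of 7.13 in S and 1.29 in W. A member on chromosome 10 had 52.3, 459 and 373 CPM at S maturity, with a ratio of 9.89 in S and 1.15 in W. The S maturity libraries were even in few members. On chromosome 14, one member had 32.9, 30.9 and 33.3 CPM in the 3 S maturity libraries, a ratio of 4.55. Replicate 1 exceeded the mean of replicates 2 and 3 in 3 of the 60. The members of chromosomes 6, 10, 14 and 18 given here were picked after their values were seen.

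S maturity replicate 1 was the lowest of the 3 S maturity libraries for 54 of the 60 members (90%). The same held for 378 of the other 469 gene models that met the S criteria (80.6%), and for 7948 of all 13354 gene models with an S maturity mean of at least 5 CPM (59.5%). Its CPM over the mean of replicates 2 and 3 had a median of 0.326 for the members, 0.381 for the other 469 and 0.730 for the 13354. Between replicates 2 and 3 the ratio had a median of 0.876 for the members. Taken library by library, the ratio to the S pea-size mean was at least 4 for 16 members in replicate 1, 56 in replicate 2 and 59 in replicate 3. It had a median of 2.61, 6.94 and 7.77 in these libraries, and 13 members had at least 4 in all 3. In 42 members, replicates 2 and 3 were at or above 4 and replicate 1 was under it. The size of the S ratio thus rests mainly on replicates 2 and 3, while replicate 1 exceeded every S pea-size library, as the rule requires.

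**Figure D4:**
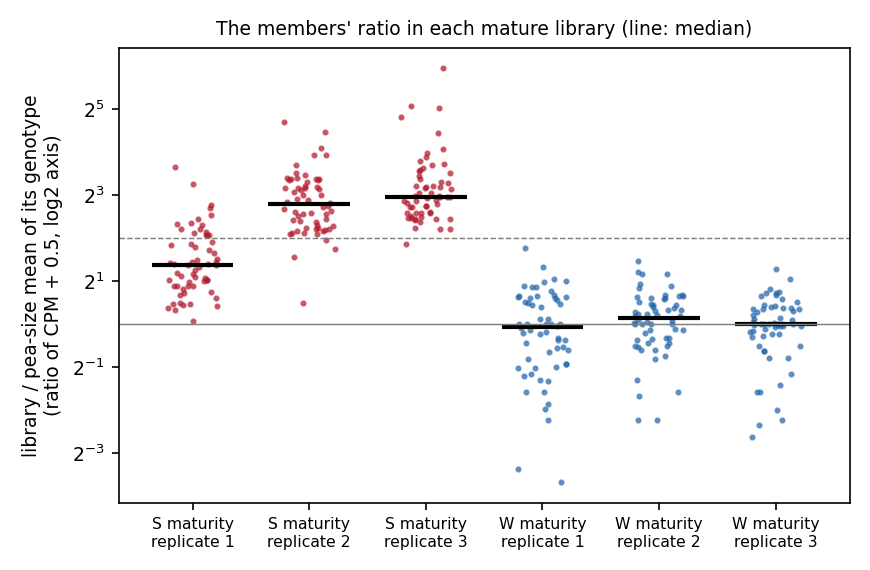
Ratio of each member in each maturity library over the pea-size mean of its genotype (vertical axis, log2 scale, CPM plus 0.5), for the 3 S and the 3 W maturity libraries (horizontal axis). Points are the 60 members, thick lines medians, the solid grey line a ratio of 1 and the dashed line a ratio of 4. The medians are 2.61, 6.94 and 7.77 in S maturity replicates 1, 2 and 3, and 0.961, 1.11 and 1.00 in W maturity replicates 1, 2 and 3.

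The level W ratio describes the group mean more than single libraries. The ratio of 1 W maturity library over the W pea-size mean lay within 1.5-fold of 1 for 25 members in replicate 1, 36 in replicate 2 and 40 in replicate 3. It ran between 0.0789 and 3.42 in replicate 1. Within a group, the highest library of a member was a median of 3.93 times the lowest at S maturity and 1.66 times at S pea-size, and 2.33 times at W maturity and 2.42 times at W pea-size.

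The rule was then applied with 1 library left out, and the left-out library was read without having been used. Without S maturity replicate 1, 135 gene models met the rule, among them all 60 members. In replicate 1, 78 of these 135 (57.8%) lay above all 3 S pea-size libraries, against 21.4% of all gene models, and 16 had a ratio of at least 4. Without S maturity replicate 2, 52 gene models met the rule, and 51 of them lay above the S pea-size libraries in replicate 2. Without S maturity replicate 3 there were 43, and 42 of them did so in replicate 3. In those libraries 30.6% and 39.2% of all gene models did. The S pea-size libraries in this reading are those the rule used. The gene models read had already passed the rule against them in the S maturity libraries kept, and the shares are over unselected gene models. The excess over those shares is therefore partly set by the choice and is no independent support. A ratio of at least 4 in the left-out library was found for 45 of the 52 in replicate 2 and for 41 of the 43 in replicate 3, and the share was smaller in replicate 1. No share over all gene models was computed for these ratio counts.

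For W, the ratio of the left-out library was read. Without W maturity replicate 1, 2 or 3, 55, 53 and 52 gene models met the rule, and the left-out library had a ratio within 1.5-fold of 1 for 18, 31 and 27 of them. Without S pea-size replicate 1, 2 or 3, 59, 60 and 54 gene models met the rule, among them 47, 46 and 47 members. Without W pea-size replicate 1, 2 or 3 there were 51, 54 and 46, among them 39, 39 and 32 members. The left-out W pea-size library had a ratio inside the rule's limits for 33, 24 and 18 of these. For these ratio counts, too, no share over all gene models was computed. Membership itself depended on single libraries, since 14 members were kept whichever S library was left out, 11 whichever W library was left out, and 2 whichever of the 12 was left out.

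Among the 529 gene models that met the S criteria, the 60 members (11.3%) were those that passed both windows. W was level in 211 and the pea-size level was shared in 141. Where the pea-size level was shared, W was above its window in 68 and below it in 13. Where W was level, the pea-size ratio of S over W was below its window in 132 and above it in 19. The other 469 gene models had a median mean level of 33.0 CPM at S maturity and 3.26 CPM at S pea-size, and 14.5 CPM at W maturity and 10.5 CPM at W pea-size. Members and others thus had similar S maturity levels by these medians and differed at the other groups, where the windows act. A further 30 gene models met every condition but the separation of the S libraries. Just inside and just outside the limits, the S ratios were 4.02 and 3.89, the S maturity means 5.17 and 4.54 CPM, the W ratios 0.672 and 0.663 at the low end and 1.495 and 1.503 at the high end, and the pea-size ratios 0.673 and 0.635 at the low end and 1.48 and 1.51 at the high end.

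**Figure D5:**
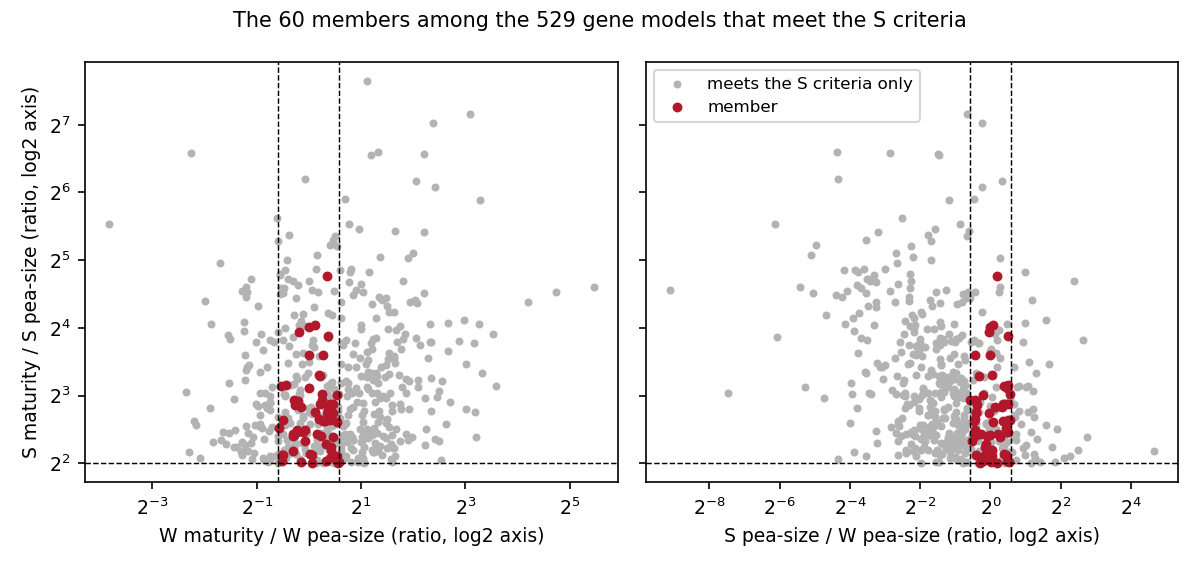
S maturity over S pea-size ratio (vertical axes, log2 scale) of the 529 gene models that met the S criteria, against the W maturity over W pea-size ratio (left) and the S over W pea-size ratio (right), both on log2 scales. Red points are the 60 members, grey points the other 469, and dashed lines the limits of 4-fold and of 1.5-fold either way. Each window cuts through a continuous cloud, and members lie inside both.

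In the fits across gene models with edgeR's quasi-likelihood test, 18439 gene models passed the filter on low counts, among them 58 of the 60 members. A gene model was called at an adjusted p of at most 0.05 and an absolute log2FC of at least 1. At S maturity over S pea-size, 46 members were called higher by edgeR, beside 4.57% of all gene models tested, and 58 by DESeq2, beside 9.22%. At W maturity over W pea-size, 0 members were called by edgeR, beside 0.938%, and 0 of the members had an unadjusted p under 0.05, beside 9.4%. DESeq2 also called 0, beside 2.26%. Between S and W at maturity 27 members were called higher in S, beside 3.48%, and at pea-size 0 were called, beside 4.98%, with 0 at an unadjusted p under 0.05, beside 20.4%, and 0 by DESeq2, beside 10.9%. The rule chose the members on these same contrasts, so the counts carry no further weight. The median log2FC of the 58 was 2.87 in S, beside 0.07 over all gene models tested, and 0.19 in W, beside -0.04. In 49 of the 58, every S maturity library lay above all 9 other libraries, beside 3.05% of all gene models tested. Over all 60 members this held for 51.

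The difference between the genotypes in their stage change, tested as an interaction across all 12 libraries, was called by edgeR for 5 members, beside 2.29% of all gene models tested in either direction. All 5 were higher in S, and neither evm.model.chr4.81 nor evm.model.chr19.89 was among them. An unadjusted p under 0.05 was found for 37 members, beside 15% of all gene models tested. The rule selected for this difference as well. The 5 had means between 116 and 701 CPM at S maturity, and lay on chromosomes 2, 17, 18 and 19. The one on chromosome 17 had 37.2, 166 and 144 CPM at S maturity, against 21.6, 20.8 and 11.7 CPM at S pea-size. In W it had 6.16, 10.1 and 10.5 CPM at maturity, against 11.0, 11.5 and 15.6 CPM at pea-size. Its W maturity libraries lay below its W pea-size libraries, although its W ratio of 0.713 was inside the window. Without S maturity replicate 1, 25 members were called in the interaction, beside 10.6% of all gene models tested, and without S pea-size replicate 3, 0 were, beside 1.02%.

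The members were spread over 18 of the 20 chromosomes. Chromosome 18 carried 10 members of its 2107 gene models, and chromosome 4 carried 8 of 1530. Chromosomes 7 and 15 carried 0. Among the members, 3 pairs (6 members) had identifier numbers within 5 of each other. This was not compared with the number of such pairs among other gene models. The pair on chromosome 19 held evm.model.chr19.89, with a mean of 15.04 CPM at S maturity, and the chromosome 19 member at 0 counts elsewhere, with 7.54 CPM. Both were highest in replicate 3. The pair on chromosome 16 had 5.03, 18.8 and 37.8 CPM in one and 3.70, 9.57 and 19.02 CPM in the other at S maturity, again in the same order of libraries. The gene model between those had an S ratio of 4.59, with a mean of 2.11 CPM at S maturity. In the pair on chromosome 4, evm.model.chr4.81 stood near a member of 7.15 CPM, and the gene model between them had an S ratio of 0.593. Only uniquely mapped reads were counted, so if neighbours are near-identical copies the split of their counts is uncertain, and whether identifier numbers follow position was not checked.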

How the data were processed

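Pedicel RNA-seq libraries, 12 in 4 groups, were made with a directional kit. Cutadapt was used for trimming, STAR for mapping to the 'Noble' genome, and HTSeq, samtools and in-house scripts for removing likely PCR duplicates and counting reads that map once. The deposited values are these raw counts, which the authors did not normalize. Groups came from the genotype and developmental stage labels. The tissue type label, which reads mature in all 12 libraries, was not used. No value column was unmapped (0).

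The 5 summary rows of each file were left out of library totals. The identifiers are 26394 gene models, of which 0 occur in the reference table. CPM and ratios were computed in Python 3.11.15 with a pseudocount of 0.5. Fits used edgeR 4.0.16 (filterByExpr with minimum count 10 and minimum total 15, TMM, robust quasi-likelihood, Benjamini-Hochberg adjustment), with S or W libraries alone for the stage contrasts and all 12 for the others. DESeq2 1.42.0 served as an alternative. Both tests were also run on simulated counts, for the S stage contrast only. That simulation had 1 dispersion for all gene models and no outlying library, so it does not cover the rule or the interaction. The members and lists were chosen with earlier results of these data known. The members given by identifier are the one with the highest mean CPM at S maturity and, among the others that average 50 or more counts in the 6 S libraries, the one with the largest S ratio. Limits from 0 take 3 counts over a group. Intervals and limits cover counting error only. PCR duplicates were removed without molecular identifiers.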

Additional observations from a re-analysis of the deposited data

Results flagged for a closer look

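For 5 members edgeR's interaction test, with all 4 groups in 1 fit, called a difference between the genotypes in the stage change. The difference of the log2FC, S minus W, was 3.25 for the member on chromosome 17 (SE 0.62) and 2.02 for the one on chromosome 19 (SE 0.40). It was 4.17 (SE 0.89) and 2.23 (SE 0.54) for the 2 on chromosome 18, and 2.69 for the one on chromosome 2 (SE 0.61). The rule chose members for such a difference, so these calls are a description and support nothing. There were 0 of them without S pea-size replicate 3, and 0 with a replicate block within each genotype.

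The chromosome 19 member had 120, 300 and 361 CPM at S maturity and 64.5, 70.5 and 58.2 CPM at S pea-size, while its 6 W libraries lay between 51.4 and 66.0 CPM. Each S maturity library lay above the other 9.

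Reads outside any gene model were left out of the library totals and made up 30.4% of the reads in S maturity replicate 1 and 21.8% in S maturity replicate 2, against 10.6% to 17.6% in the pea-size libraries and in the other maturity libraries.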

How the results depend on the processing

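The number of members depended on the limits. It was 15 with both windows narrowed to the planned narrower limits, 135 with both widened to 2-fold either way, 36 with an S maturity mean of at least 20 CPM and 42 with the 5 summary rows, the reads outside gene models among them, in the library totals, and it ran between 43 and 135 with 1 library left out, 135 being without S maturity replicate 1. Members called by DESeq2 in place of edgeR were 58 in S, 23 in the interaction and 45 at maturity. Over all gene models tested, the shares were 9.22%, 6.52% and 8.84%. With all 12 libraries in 1 fit, edgeR called 32 members in S, beside 4.46%. With 1 library left out, the calls ran between 4 and 57 in S, 0 and 1 in W, 0 and 25 in the interaction, 11 and 36 at maturity, and 0 and 1 at pea-size. The calls in S were 57 without S maturity replicate 1, 15 and 18 without replicate 2 or 3, and 6, 5 and 4 without S pea-size replicate 1, 2 or 3. Calls over all gene models moved too, to 13.5%, then 1.55% and 2.07%, then 0.586%, 0.672% and 0.721%. Calls in the interaction were 25 without S maturity replicate 1, 8 without W pea-size replicate 3 (10.6% and 3.16% of all gene models tested) and at most 3 without any other single library. Calls at maturity were 13 without S maturity replicate 2 or 3 or W maturity replicate 2, and 11 without W maturity replicate 3, beside 1.5%, 1.4%, 1.21% and 1.01%. The 36 at maturity came without S maturity replicate 1, beside 9.21%. The single calls in W and at pea-size came without W pea-size replicate 3, beside 2.76% and 4.03%. Deviations of same-numbered libraries correlated between -0.123 and 0.0433, so no pairing by replicate number was seen in the counts. Whether same-numbered libraries share a plant or preparation is not known here. With the replicate block 24 members were called in S, 2 in the interaction and 19 at maturity, beside 1.91%, 1.5% and 2.2%. A separate block for each number within each genotype, which was fitted first and became an added alternative after its value was seen, gave 0 in the interaction, beside 1.18%. The summed log2 ratio of 2.49 in S ran between 2.21 and 2.91 with 1 library left out. At this depth, members near 0 counts outside S maturity have no reliable ratio.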
